A study of Mus musculus with 2 samples.

Results

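The genes described here are 10 members of the Notch pathway out of 32285 genes in the deposited count tables: 3 receptors (Notch1, Notch2 and Notch3), 4 ligands (Jag1, Jag2, Dll1 and Dll4) and 3 target genes (Hes1, Hey1 and Heyl). They were taken by symbol from a fixed list, and each symbol was found once in both tables. Single cells came from mouse uterus on gestational day 3.5, when the uterus prepares for the embryo to attach. One library came from a control with floxed Mig-6 (Mig-6f/f) and 1 from a uterus labelled knockout, KO (Pgrcre/+Mig-6f/f), which carries the same floxed gene together with Cre at the progesterone receptor gene Pgr. Cre is therefore directed to cells that express Pgr, in epithelium, stroma and muscle, and an effect of Cre at Pgr cannot be told apart from loss of Mig-6. Each genotype is 1 library, so there is no replicate check and no test: every difference below is one between these 2 libraries, and every interval covers counting error only.

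Notch signalling passes between cells that touch. A Jagged or Delta-like ligand on one cell pulls on a Notch receptor on its neighbour, proteases cut the receptor, and its freed intracellular part binds the DNA-binding protein RBPJ and switches on target genes such as those of the Hes and Hey families. These targets encode repressors of transcription. In blood vessels Dll4, Jag1 and Notch1 act between endothelial cells and Notch3 acts in the mural cells around them. In the uterus, Notch1 and RBPJ are known for parts in implantation and in the stromal response to pregnancy.

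The control held 44871170 unique molecular identifiers (UMIs) over 4627 barcodes and the library labelled KO 23317904 over 3118, and 4303 and 2881 barcodes were kept after filters. Barcodes were epithelial when Epcam, Krt8, Krt18 and Cldn7 together reached at least 10 per 10000 UMIs, stromal when Dcn, Col1a2 and Col3a1 did, and other when neither did. The control had 722 epithelial, 3221 stromal and 334 other barcodes, and the library labelled KO 1419, 1049 and 404. Another 26 and 9 barcodes passed both cuts and were set aside. Epithelial barcodes thus made up 16.8% (95% interval 15.7 to 17.9) and 49.3% (47.4 to 51.1) of the 2 libraries. Median UMIs per barcode were 11752 and 9531 in epithelium, 8889 and 3637 in stroma and 5774 and 2051 in other barcodes. Check markers that played no part in the cuts followed the names. Epithelial check genes summed to 7106 and 8633 UMIs per 1000000 UMIs of the class and library (CPM) in epithelial and 52.5 and 56.6 in stromal barcodes, and stromal check genes to 1378 and 1392 in stroma and 13.0 and 5.05 in epithelium. Errfi1, the gene of Mig-6, stood at 575 and 513 CPM in epithelium at 197 and 733 in stroma and at 120 and 456 in other barcodes, so in the last 2 classes its transcript goes against the label. A 3′ tag outside the deleted part cannot check the deletion, and which part is deleted is not stated in the sources used. Only 3 barcodes occurred in both libraries.

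Levels below are in CPM, with the control first and 95% intervals in brackets. In epithelium, Notch1 and Notch2 differed between the libraries in opposite directions. Notch1 stood at 21.8 (19.1 to 24.8) in the control and 13.5 (11.9 to 15.4) in the library labelled KO, a ratio of 0.620 (0.515 to 0.746). Notch2 stood at 51.1 (46.9 to 55.6) and 81.0 (76.9 to 85.4), a ratio of 1.58 (1.43 to 1.75). The intervals of the 2 libraries did not overlap for either receptor, and both differences were under 2-fold over the whole class. Split by the immediate early score described below, the Notch2 ratio was 1.37, 1.55 and 2.17 (1.69 to 2.83) from the low range to the high one. Notch1 was 0.631, 0.512 and 0.880, the last with an interval of 0.538 to 1.47 that includes 1. Notch3 gave 22 and 34 UMIs in epithelium, at 2.07 and 1.95 CPM, and its ratio of 0.942 (0.535 to 1.69) did not separate the libraries.

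Receptor levels in stroma were close. Notch1 was 16.5 in the control and 14.98 (11.4 to 19.3) in the library labelled KO, a ratio of 0.910 (0.682 to 1.19). Notch2 was 35.7 and 41.1, a ratio of 1.15 (0.971 to 1.36). Notch3 was 3.12 and 2.28 on 92 and 9 UMIs, and its interval of 0.325 to 1.45 allows a fall of over 2-fold. For each of these 3 receptors the intervals of the 2 libraries overlapped in stroma, which bounds the difference without showing the levels to be equal.

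Shares of barcodes with at least 1 UMI depend on depth, so they were also taken after each barcode was thinned to 2000 UMIs, which left out 13 and 51 shallower epithelial, 26 and 109 stromal and 11 and 103 leukocyte barcodes. Notch1 was seen in 24.8% and 14.7% of epithelial barcodes, and in 3.95% (2.64 to 5.66) and 2.56% (1.79 to 3.54) of thinned ones. Notch2 was seen in 41.4% and 46.9%, and after thinning in 9.45% (7.40 to 11.8) and 13.7% (11.96 to 15.7). Thinning kept the order for Notch2 with intervals apart, while the Notch1 intervals overlapped. In stroma the unthinned shares of Notch1, 11.1% and 5.24%, became 2.91% and 2.87% once depth was matched.

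**Figure D1:**
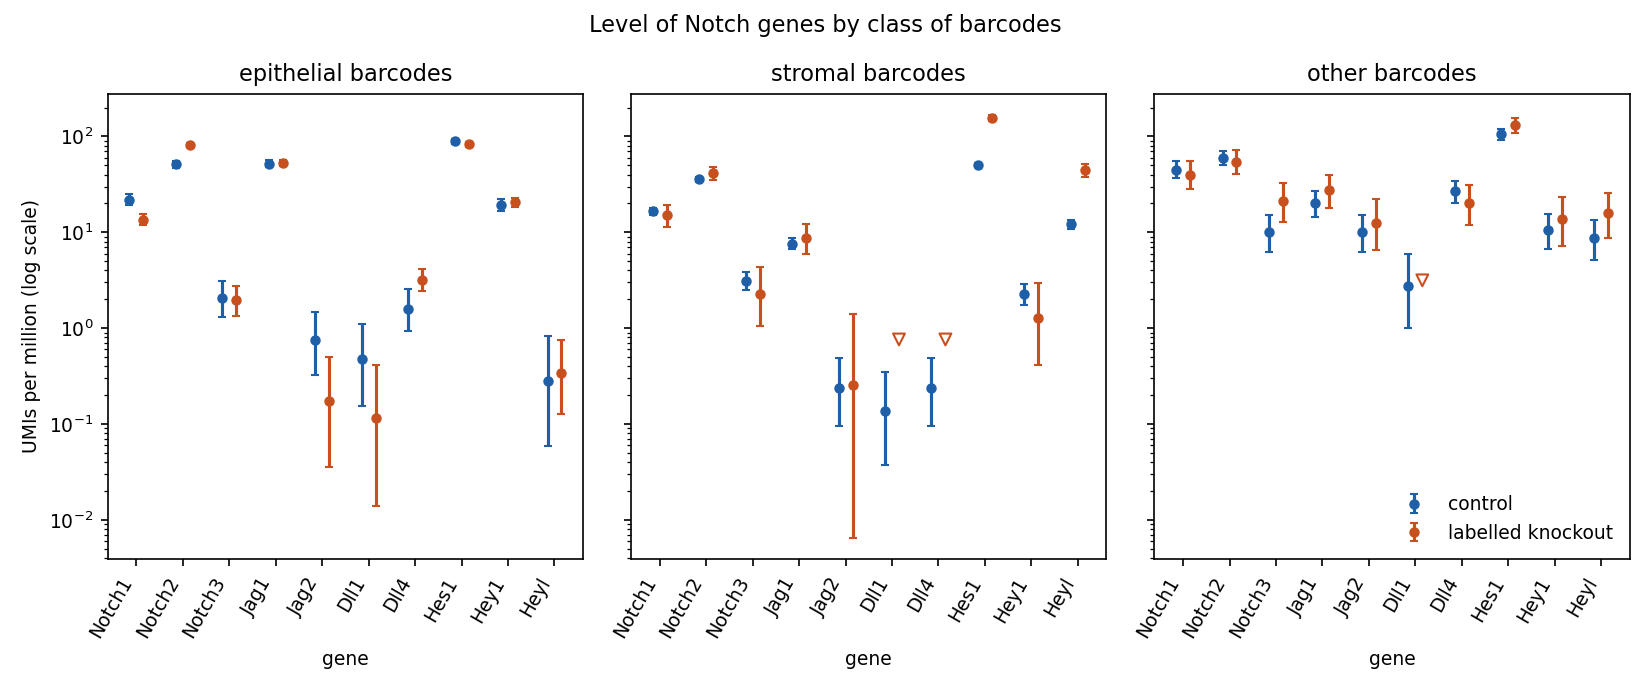
Level of each of the 10 Notch genes in CPM (log axis) in epithelial, stromal and other barcodes of the control (blue) and the library labelled KO (orange). Points are summed counts, bars exact 95% Poisson intervals, and open triangles mark genes at 0 UMIs, drawn at the level of 3 counts. Hes1 and Heyl stand apart between the libraries in stroma, at 50.2 and 156 for Hes1 and 12.2 and 44.4 for Heyl.

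Among the ligands, Jag1 was the one measured in quantity, and it was higher in epithelium than in stroma. Vessel cells, gated as described below, carried it too. Control pericytes had 13 UMIs, 8.38-fold (4.39 to 14.6) above stroma outside the gates, and pericytes labelled KO had 0. Endothelium labelled KO stood above epithelium, as given below. The epithelial level of Jag1 was 52.0 (47.7 to 56.5) in the control and 52.9 (49.6 to 56.4) in the library labelled KO, a ratio of 1.02 (0.915 to 1.13). In stroma it was 7.59 and 8.63, so that epithelium stood 6.85-fold (5.85 to 8.03) above stroma in the control and 6.13-fold (4.35 to 8.91) in the other library. Leukocytes, picked by Ptprc, Laptm5, Coro1a and Rac2, carried Jag1 at 7.77 (3.12 to 16.01) and 5.53 (0.670 to 19.97). Stromal Jag1 lay within those intervals, which rest on 7 and 2 UMIs, so it could not be told apart from the level in leukocytes. It was not even over stroma: 7 control barcodes held 3 or more Jag1 UMIs, and where the immediate early score described below was 40 or more, Jag1 was 5.51 and 21.0 on 7 and 14 UMIs, a ratio of 3.81 (1.44 to 11.1). After thinning, its shares of 1.35% and 1.91% in stroma stood beside 1.43% (0.173 to 5.07) and 0% (0 to 4.62) in leukocytes. Leukocytes had median depths of 5525 and 1772 UMIs, and stroma 8889 and 3637.

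Over all kept barcodes together Jag1 was 19.4 and 44.0 CPM, and Notch2 40.8 and 72.9. Epithelium gave 67.1% and 93.7% of all Jag1 UMIs and 31.3% and 86.7% of all Notch2 UMIs. Within epithelium the ratio was 1.02 for Jag1 and 1.58 for Notch2, so the whole-library Notch2 values differ in level within epithelium as well as in the share of epithelium.

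Dll4, the Delta-like ligand of sprouting vessels, was the 1 member past 2-fold in epithelium. It gave 17 UMIs in the control and 56 in the library labelled KO, 1.60 (0.933 to 2.56) and 3.21 (2.43 to 4.17) CPM, a ratio of 2.01 (1.15 to 3.69). A single UMI was the whole signal in 14 of 15 positive control barcodes and in 48 of 52 positive barcodes of the other library. It was also the 1 of 7 members with 20 or more UMIs in epithelium that passed 2-fold, where 5.13% of all 13349 genes with that many UMIs were higher by that margin and 20.2% differed by it in either direction. The ratio lies at the 2-fold line: it was 1.89 with all deposited barcodes, 1.94 with a class cut of 20 and 1.81 in barcodes of low immediate early score, and 4.66 after thinning, where 1 of 709 and 8 of 1368 barcodes were positive. Of 6 endothelial check genes 0 were higher in epithelium of the library labelled KO, at a sum of 5.27 and 2.53. Cldn5 was at 0 in both libraries, and Kdr and Tie1 at 0 in the second, from 4 and 1 UMIs in the control. Tek had 13 and 4 UMIs, Ptprb 31 and 29 and Vwf 7 and 11, the last at 0.659 and 0.631 CPM. The part of vessel RNA in the Dll4 ratio was not tested. Leukocytes held 0 Dll4 UMIs, which allows up to 3.33 and 8.29 CPM, limits that lie above both epithelial levels.

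Jag2 was barely detected outside vessels, and Dll1 was barely detected at all, with 3 and 0 UMIs in endothelium. Jag2 gave 8 and 3 UMIs in epithelium and 7 and 1 in stroma, and Dll1 gave 5 and 2 in epithelium and 4 and 0 in stroma. Jag2, Dll1 and Heyl fell under 20 UMIs in epithelium and Jag2, Dll1 and Dll4 did so in stroma, and no fold is drawn from them there. Dll1 had 15 UMIs in the whole control library and 2 in the other.

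Among members with 20 or more UMIs in epithelial, stromal or other barcodes as a whole, the largest ratios were those of 2 target genes in stroma. Hes1, which represses transcription of many genes and of itself, stood at 50.2 (47.6 to 52.8) in control stroma and 156 (144 to 168) in stroma of the library labelled KO. Heyl, a Hey family repressor, stood at 12.2 (10.9 to 13.5) and 44.4 (38.1 to 51.5). The ratios were 3.10 (2.82 to 3.41) for Hes1 on 1480 and 613 UMIs and 3.65 (3.03 to 4.39) for Heyl on 359 and 175. For both genes the intervals of the libraries lay far apart. Of the 7 members with at least 20 UMIs in stroma these 2 passed 2-fold upward and the other 5 stayed inside it, where 5.48% of 14462 genes were higher and 11.7% lower. The median log2 ratio was 0.19 over those 7 members and -0.05 over all genes with at least 20 UMIs.

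In the library labelled KO a larger share of stromal barcodes carried these transcripts, beside their higher CPM. Hes1 was seen in 20.5% and 26.1% of stromal barcodes as deposited, and in 8.01% (7.09 to 9.01) and 19.7% (17.2 to 22.4) of barcodes thinned to equal depth. Heyl was seen in 8.26% and 13.8%, and after thinning in 2.13% (1.66 to 2.69) and 8.19% (6.52 to 10.1). Both differences in share were wider at equal depth. The UMIs were spread over many barcodes: the 5 stromal barcodes richest in Heyl held 26 of the 359 control UMIs and 17 of 175 in the other library, and for Hes1 59 of 1480 and 42 of 613. Leukocytes lacked Heyl altogether, at 0 UMIs in both libraries with limits of 3.33 and 8.29 CPM, and held Hes1 at 25.5 and 16.6.

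Hey1, the third target, was higher in epithelium than in stroma, and higher still in endothelium. Its epithelial level was 19.2 (16.7 to 22.0) and 20.5 (18.5 to 22.8), a ratio of 1.07 (0.898 to 1.28), against 2.27 and 1.27 in stroma on 67 and 5 UMIs. The stromal ratio of Hey1 was thus 0.559, below 1 unlike those of Hes1 and Heyl, with an interval that includes 1. It ran from 0.511 to 0.667 over its 10 alternatives. Endothelial Hey1 was 48.7 and 90.7 on 24 and 11 UMIs, 2.53-fold (1.59 to 3.88) and 4.42-fold (2.18 to 7.997) above epithelium. Hes1 in epithelium was 89.0 (83.4 to 94.8) and 82.4 (78.2 to 86.8), a ratio of 0.926 (0.853 to 1.01). Hes1 was thus 1.77-fold (1.63 to 1.93) higher in epithelium than in stroma of the control, and 1.89-fold (1.72 to 2.08) higher in stroma than in epithelium of the library labelled KO. Heyl was nearly absent from epithelium, with 3 and 6 UMIs, and stood 43.1-fold (14.6 to 210) and 129-fold (58.1 to 356) higher in stroma.

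Immediate early genes respond within minutes to growth factors and also to tissue dissociation. In epithelium, where the Hes1 ratio was 0.926, 10 of 18 genes of a dissociation list were higher in the library labelled KO, summing to 10334 and 10825 CPM. In stroma 16 of the 18 were higher, with summed levels of 9677 and 11731 CPM. Egr1, at 152 and 423, had the largest stromal ratio of the list, and Fos was 182 and 291. Heat shock genes of the list differed little in stroma, such as Hsp90aa1 at 2648 and 2702 and Hspa1b at 705 and 696. Stromal barcodes were therefore split by the sum of Fos, Jun, Junb, Egr1 and Ier2 per 10000 UMIs, a split chosen after the Hes1 values had been seen. Under 20, Hes1 was 34.7 in 2611 control barcodes and 56.2 in 702 labelled KO, a ratio of 1.62 (1.34 to 1.94). From 20 to 40 it was 114 and 218, a ratio of 1.92 (1.60 to 2.29). At 40 and above it was 112 in 141 barcodes and 458 in 160, a ratio of 4.07 (3.33 to 5.005). The Hes1 difference was thus present in all 3 ranges and under 2-fold in the lower 2.

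Heyl did not follow that split. Its ratio was 3.87 (3.09 to 4.82) in the lowest range, 3.39 (2.19 to 5.19) in the middle one and 3.05 (1.53 to 6.25) in the highest. Control Heyl was 11.8, 14.0 and 11.8 CPM from the lowest range to the highest, and Heyl of the library labelled KO 45.8, 47.3 and 36.0. How far a response to dissociation takes part in the Hes1 difference was not tested beyond this split.

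Depth and stromal subtype were followed in the same way. Among stromal barcodes with 3000 to 6000 UMIs, 397 in the control and 652 labelled KO, Hes1 had a ratio of 3.07 (2.45 to 3.88) and Heyl one of 2.27 (1.55 to 3.39). With 6000 UMIs or more the ratios were 4.16 (3.37 to 5.07) and 3.23 (1.92 to 5.13). In barcodes rich in the fibroblast genes Dpt and Igfbp6 they were 2.76 (2.44 to 3.13) and 3.29 (2.56 to 4.205), and in the rest 3.66 (3.13 to 4.26) and 4.03 (3.01 to 5.36). Notch1 and Notch2 stayed within 2-fold in each of these depth and subtype ranges except Notch1 under 3000 UMIs, where it had 3 and 5 UMIs.

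**Figure D2:**
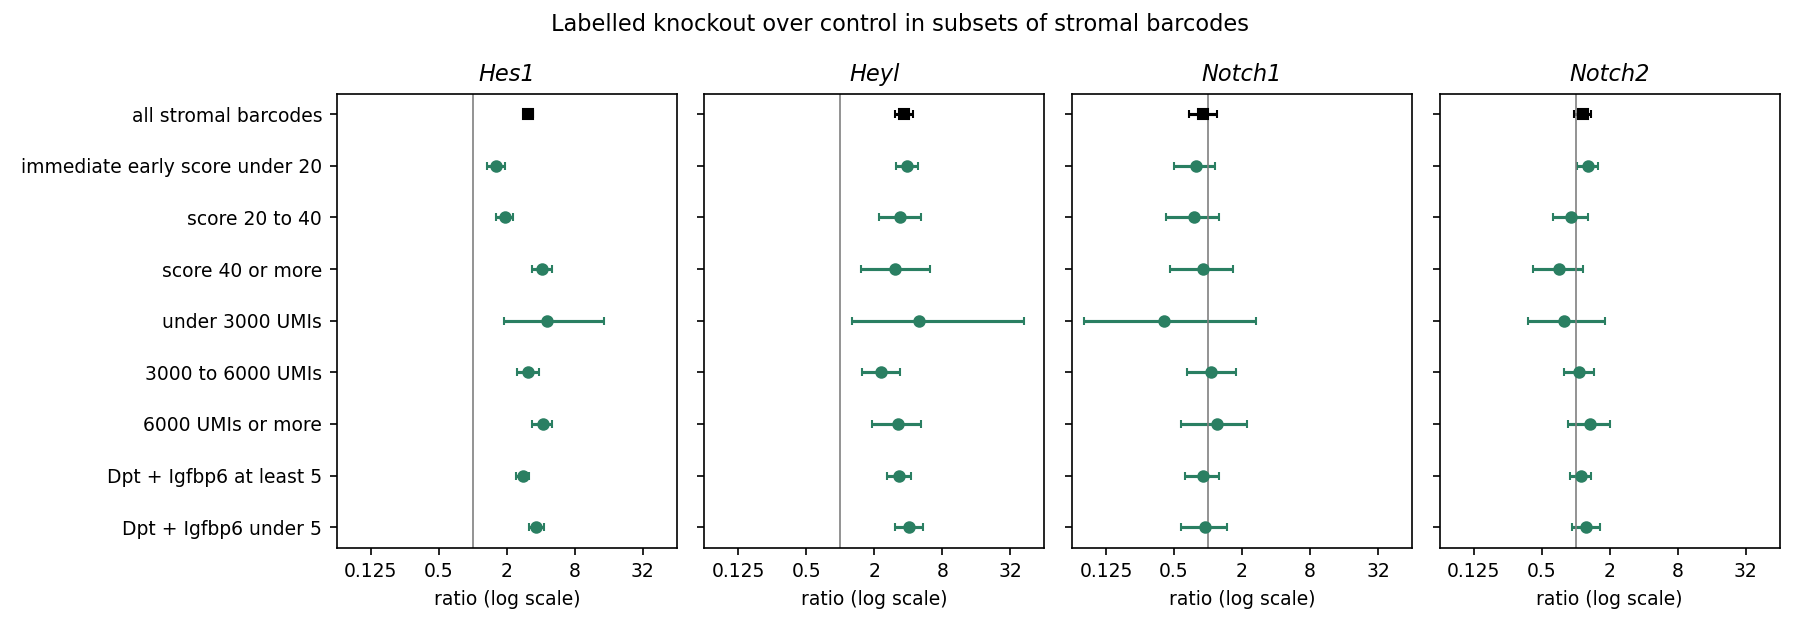
Ratio of the library labelled KO to the control (log axis) for Hes1, Heyl, Notch1 and Notch2 in all stromal barcodes (black squares) and in subsets split by immediate early score, UMIs per barcode and the fibroblast genes Dpt and Igfbp6 (green circles), with exact 95% intervals. Heyl lies above 1 in each subset, by immediate early score the Hes1 ratio is 1.62 in the low range and 4.07 in the high one, and the intervals of Notch1 include 1 in every subset.

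Mural cells also express Heyl and can pass the stromal cut, so markers of pericytes were counted in stroma. Of 4 pericyte check genes 1, Pdgfrb, which stromal fibroblasts express too, was higher in stroma of the library labelled KO, at 35.5 and 77.2. Cspg4 was 3.96 and 3.05, Mcam 3.22 and 1.27 and Ndufa4l2 5.49 and 4.82. With barcodes that passed a gate of pericytes, smooth muscle, endothelium or leukocytes left out of stroma, the ratios were 3.23 (2.93 to 3.55) for Hes1 and 3.82 (3.16 to 4.61) for Heyl. Both differences were as large without those barcodes, where 3 of the 4 pericyte genes were higher at a sum of 40.05 and 80.8. Most of that sum was Pdgfrb, at 33.3 and 74.5. Mcam was 1.27 and 1.32 on 37 and 5 UMIs, Ndufa4l2 2.13 and 2.37 on 62 and 9, and Cspg4 was lower, at 3.34 and 2.63. Of 6 epithelial check genes in stroma 5 were higher in the library labelled KO, such as Wfdc2 at 8.30 and 39.6, while Cldn3 was 42.1 and 1.52.

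Within epithelium, glands were set apart by Foxa2, Cxcl15, Prss28 and Prss29 at 10 or more per 10000 UMIs, which gave 98 and 65 barcodes. Notch2 was lower in glandular than in the remaining, mainly luminal, barcodes, at 17.2 against 55.6 in the control, 3.23-fold (2.09 to 5.27), and 26.0 against 82.7 in the library labelled KO, 3.19-fold (1.86 to 5.998). Hes1 was higher in glands in both libraries, 1.55-fold (1.30 to 1.85) and 1.81-fold (1.41 to 2.29). Notch1 was 21.0 and 12.9 on the luminal side, a ratio of 0.617 (0.507 to 0.752). In glands it was 28.6 and 33.9 on 35 and 17 UMIs, a ratio of 1.19 (0.623 to 2.17) whose interval overlaps the luminal one. Glandular Hey1 was 37.6 on 46 UMIs in the control and 11.98 on 6 UMIs in the library labelled KO, 3.14-fold lower (1.34 to 8.999), while luminal Hey1 was 16.8 and 20.8. The gland cut is a range on a score: 26 epithelial barcodes labelled KO lay from 5 to 10 and 11 from 10 to 20, against 3 and 6 in the control.

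Other barcodes pooled several cell types, of which leukocytes were the most numerous, numbering 151 among 334 for the control and 180 among 404 for the library labelled KO. Of 9 members with at least 20 UMIs there, 1 passed 2-fold, upward, where 4.31% of 10414 genes were higher and 5.90% lower. That member was Notch3, at 9.99 on 22 UMIs and 21.0 on 20 UMIs, a ratio of 2.10 (1.09 to 4.04). After thinning to 2000 UMIs it was seen in 5 of 307 and 1 of 207 of these barcodes with a ratio of 0.247, so no direction is drawn for it. Gm17276 lies on the opposite strand of Notch3 and had 417 UMIs where Notch3 had 201, so Notch3 is uncertain if counting ignored strand. The remaining members of that class were within 2-fold, but some moved past it with the class cut or the immediate early score. Hes1 was 106 and 130, a ratio of 1.23 (0.982 to 1.54), which became 2.22 with a class cut of 20 and 0.560 at low immediate early score. Jag1 was 1.37 (0.808 to 2.27), and 2.22, 2.47 and 2.58 with a cut of 5, a cut of 20 and at low score. In the 94 and 118 other barcodes that passed no gate, Hes1 was 39.1 and 167, a ratio of 4.28 (2.67 to 7.02), and Heyl had 6 and 11 UMIs, a ratio of 3.59 (1.22 to 11.8). Their stromal check genes summed to 562 and 672 CPM, with 2 of 5 higher in the library labelled KO. Epithelial check genes in these barcodes summed to 109 and 448, with 5 of 6 higher, and leukocyte check genes to 359 and 218, with 1 of 4 higher. The part of the mix of cells in these 2 ratios was not tested.

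Vessel cells held the highest levels of several members. Endothelium, taken by Pecam1, Cdh5, Emcn and Egfl7, gave 60 barcodes in the control and 42 in the library labelled KO. Dll4 there was 126 (96.4 to 161) and 157 (94.3 to 245), and Jag2 was 44.6 and 90.7 on 22 and 11 UMIs. Endothelium held 62 of the 83 Dll4 UMIs of the control, 74.7%, and 25.3% of those labelled KO, where epithelial barcodes were more. Notch1 was 132 (102 to 168) and 181 (114 to 275) and Hes1 288 (242 to 339) and 289 (201 to 401). Notch2 had 1 UMI in each library and Notch3 and Heyl 0, which allows up to 6.08 and 24.7 CPM. The ratios of Notch1, Dll4, Hes1, Hey1 and Jag2 between libraries all had intervals that included 1.

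Jag1 was the exception in endothelium, at 30.4 (17.0 to 50.2) and 132 (75.4 to 214), a ratio of 4.34 (2.01 to 9.42) on 15 and 16 UMIs. The 5 richest of the 42 barcodes labelled KO held 13 of those 16 UMIs. Endothelial check genes were also higher there, 4 of 6 at a sum of 1222 and 1922, with Ptprb at 178 and 544 and Cldn5 at 52.7 and 140. Epithelial check genes summed to 12.2 and 115 CPM in the same barcodes, with 2 of 6 higher and Cdh1, Krt19 and Cldn4 at 0 in both libraries. Endothelial Jag1 was 0.585-fold (0.325 to 0.973) the epithelial level in the control and 2.49-fold (1.42 to 4.07) in the library labelled KO. The part of epithelial RNA, or of the higher endothelial genes, in the endothelial Jag1 ratio between libraries was not tested.

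Pericytes, taken by Rgs5, Kcnj8, Abcc9 and Higd1b, gave 35 and 14 barcodes and had the highest levels of Notch3 and Heyl among the populations compared. Notch3 was 238 (49 UMIs) in the control and 371 (9 UMIs) in the library labelled KO, which is 117-fold (78.6 to 174) and 235-fold (74.6 to 802) above ungated stroma. Heyl was 151 and 165 on 31 and 4 UMIs, 13.0-fold (8.71 to 18.8) above ungated stroma in the control and 3.73-fold (1.00 to 9.72) in the library labelled KO. Smooth muscle gave 72 and 74 barcodes with Hes1 at 181 and 192, a ratio of 1.06 (0.696 to 1.60), and Heyl at 10.7 and 34.5 on 4 and 7 UMIs. Smooth muscle check genes summed to 30455 and 12441 CPM in that gate, with 0 of 4 higher in the library labelled KO. Stromal check genes there summed to 531 and 976, with 4 of 5 higher. Whether the smooth muscle gate held like cells in the 2 libraries was not tested. Gated leukocytes carried Notch2 at 97.7 (78.4 to 120) and 74.6 (49.2 to 109), and Notch1 at 24.4 and 30.4.

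**Figure D3:**
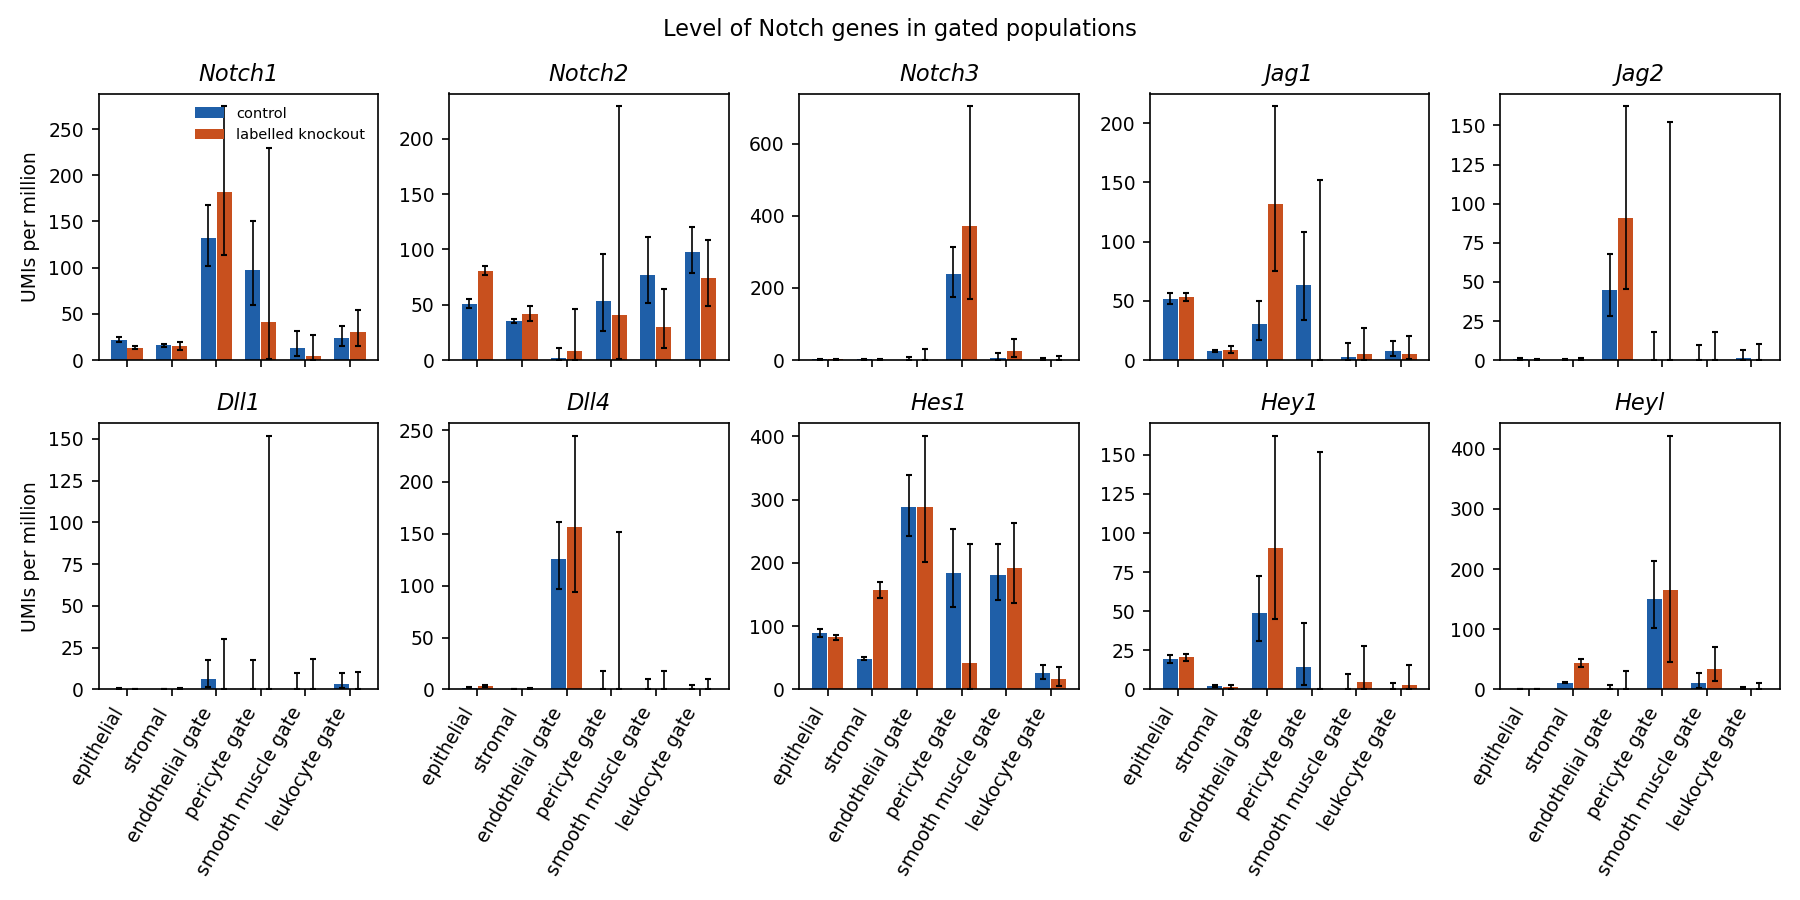
Level of the 10 Notch genes in CPM (linear axes that start at 0, one scale per gene) in epithelial and stromal barcodes outside the gates and in barcodes gated as endothelium, pericytes, smooth muscle and leukocytes, for the control (blue) and the library labelled KO (orange), with exact 95% Poisson intervals. Dll4 and Jag2 are highest in endothelium, Notch3 and Heyl in pericytes, and the wide bars of the library labelled KO come with its 14 pericyte and 42 endothelial barcodes.

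From the control counts, the order for Notch1 was endothelium (132) and pericytes (97.2) with overlapping intervals, then leukocytes, epithelium and stroma. The leukocyte interval, on 22 UMIs, overlapped those of epithelium and stroma. Notch2 ran from leukocytes (97.7) and smooth muscle (77.3) through pericytes (53.4) and epithelium (51.1) to stroma (35.3), with endothelium at 2.03. Smooth muscle had 29 Notch2 UMIs and pericytes 11, and the intervals of both overlapped those of their neighbours in this order. Hes1 ran from endothelium (288) through pericytes (185), smooth muscle (181), epithelium (89.0) and stroma (48.7) to leukocytes (25.5). The pericyte interval for Hes1, on 38 UMIs, overlapped those of both endothelium and smooth muscle. In the library labelled KO ungated stroma (157) stood above epithelium (82.4) for Hes1.

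The rest of the pathway was taken from a list of 58 genes, all found in the tables. In epithelium 44 had at least 20 UMIs, of which 1 passed 2-fold upward, 4 passed it downward and 39 stayed inside it. Rfng, a Fringe glycosyltransferase that modifies Notch receptors and shifts which ligands they answer to, was 151 and 18.8 CPM, 8.04-fold lower (7.13 to 9.08). On the luminal side it was 168 and 18.6, in glands 18.8 and 24.0, a ratio of 1.27 (0.578 to 2.67), and in stroma 19.6 and 21.6. Hey2, a target of the Hey family, was 6.31 and 2.18, 2.89-fold lower (1.91 to 4.43). Aph1b, a subunit of gamma-secretase, and Numbl, a relative of the Notch inhibitor Numb, were lower on 31 and 30 UMIs in all. Furin, the protease that matures Notch receptors and many other proteins, was 51.0 and 103, a ratio of 2.01 (1.83 to 2.22).

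In stroma 47 of the 58 genes were measured, with 1 past 2-fold upward, 3 downward and 43 inside it. Maml2, a coactivator that joins RBPJ and the Notch intracellular part, was 124 and 488, a ratio of 3.92 (3.71 to 4.15), and in epithelium 209 and 213. Of 4 nuclear RNAs 2 were also higher in stroma, Malat1 at 10424 and 16740 and Neat1 at 306 and 726, and 2 lower, Meg3 at 375 and 134 and Kcnq1ot1 at 317 and 256. The part of nuclear RNA in the Maml2 value was not tested. Dtx1, a Deltex ubiquitin ligase and Notch target, was 4.85 on 143 UMIs and 1.02 on 4, 4.77-fold lower (1.82 to 17.8), opposite to Hes1 and Heyl. Lfng was 59 UMIs and 1, 7.88-fold lower (1.36 to 316). Notch4 was 37 UMIs and 1, with an interval of its ratio (0.00499 to 1.20) that includes 1. Rbpj itself was 137 and 126 in stroma and 33.1 and 30.6 in epithelium, with ratios of 0.917 (0.833 to 1.01) and 0.927 (0.809 to 1.06).

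Other barcodes had 45 of the 58 genes measured, with 1 past 2-fold upward, 1 downward and 43 inside it. Rbpj was 213 and 69.3, 3.07-fold lower (2.37 to 4.04), and within leukocytes 333 and 91.2. Neurl3, an E3 ubiquitin ligase related to the ligand-activating Neuralized proteins, was 116 and 250, a ratio of 2.16 (1.80 to 2.59), and in endothelium 180 and 602. These shares of called genes, 5 of 44 in epithelium, 4 of 47 in stroma and 2 of 45 in other barcodes, stand beside 20.2%, 17.2% and 10.2% of all genes past 2-fold in either direction.

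**Figure D4:**
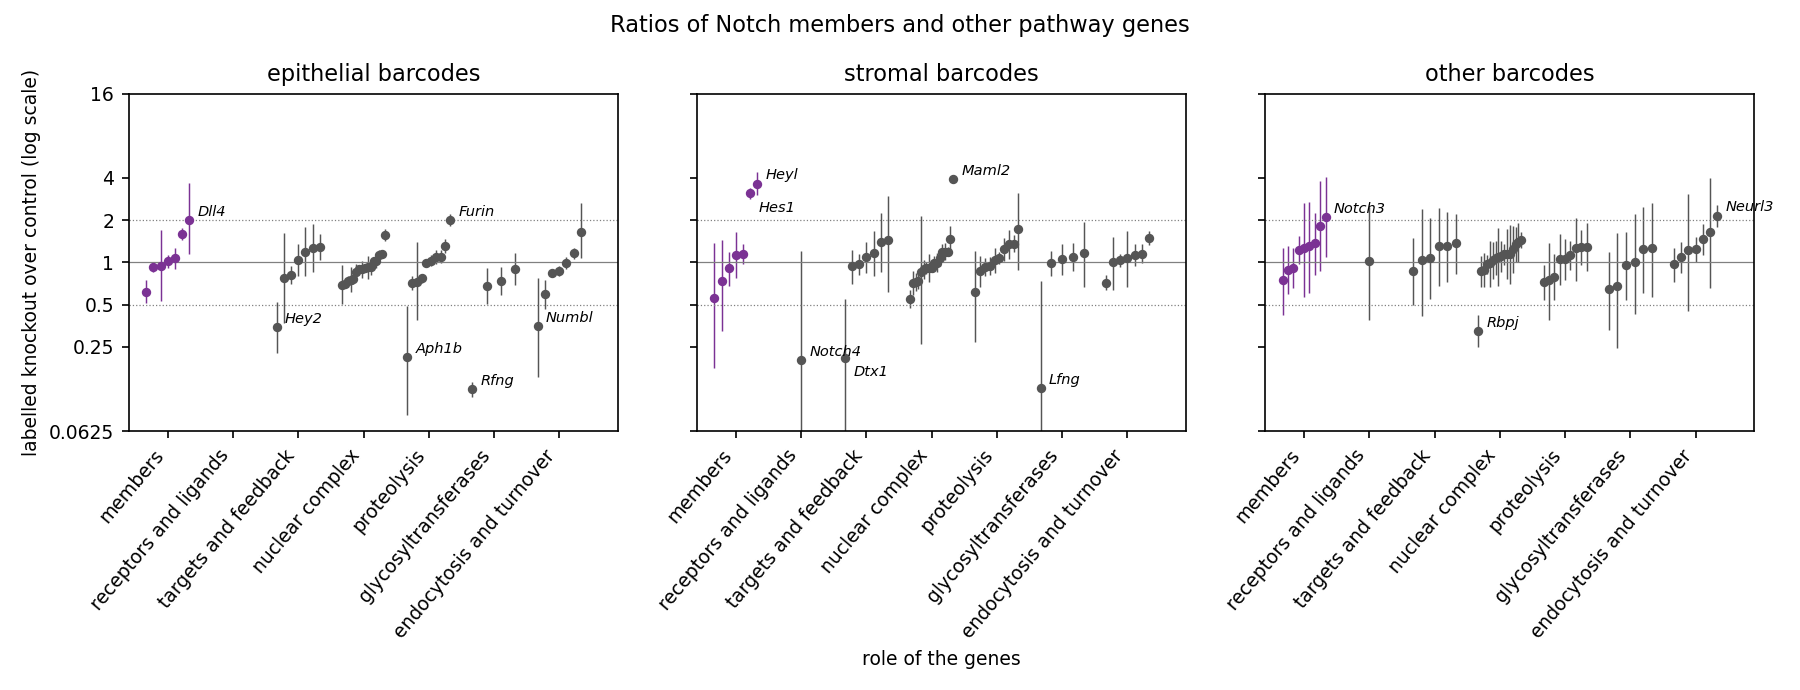
Ratio of the library labelled KO to the control (log axis) for Notch members (purple) and for other pathway genes by role (grey) with at least 20 UMIs in epithelial, stromal and other barcodes, with exact 95% intervals and dotted lines at 2-fold (bars that reach the lower edge are cut there). Hes1, Heyl and Maml2 lie above 2 in stroma, and Rfng lies lowest in epithelium at 8.04-fold below the control.

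By likeness across 12 points (6 populations in each of 2 libraries, Pearson r of log2 levels), Heyl was nearest to Pcdh18 (0.98), Mark1 (0.98) and Rem1 (0.98), and Notch3 to Ndufa4l2 (0.96), Cox4i2 (0.94) and Pakap (0.93). Hes1 was nearest to Cdh13 (0.92), Kank1 (0.92) and Tsc22d1 (0.91), and Hey1 to Cx3cl1 (0.94), Rassf9 (0.93) and Samd12 (0.92). Notch1 was nearest to Apold1 (0.94), Notch2 to Suds3 (0.90) and Jag1 to Nuak1 (0.93). Among members the highest values were Jag1 with Hey1 (0.88) and Notch3 with Heyl (0.86). The points share libraries and depth, and small populations weigh as much as large ones.

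RefSeq promoters (GRCm38.p6, 250 bases before to 50 after a gene's start) were at hand for 7 of the 10 members, Hes1, Hey1 and Heyl not among them. The RBPJ core motif GTGGGAA, searched on both strands, was in 0 of those 7 and in 6.38% of all 32851 promoters of that length.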

How the data were processed

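Single-cell RNA was measured in 2 libraries, 1 per genotype. The authors deposited integer UMI counts per gene and barcode that, per the file headers, came from Cell Ranger 7.0.1. Genome mm39 and Seurat are named per the submitters' processing notes. Trypsin digestion, removal of blood cells and 10x capture are given per the labels' protocols. The sources used do not state whether intronic reads were counted.

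Kept barcodes had 500 or more genes and no more than 15% of UMIs from mitochondria (the gene filter took 65 and 115, the mitochondrial one 126 and 114), and 159 and 70 likely doublets were removed by Scrublet in scanpy 1.11.5 at 0.8% per 1000 barcodes. For each class of each library, a gene's UMIs were summed and divided by the total. Ratios carry exact conditional 95% intervals, levels exact Poisson intervals and shares exact binomial intervals. A library at 0 was set to 3 counts, or the ratio to 1 where that passed the other library. Interval code was tested on simulated data. Folds were counted from 20 UMIs. The members, lists, gates and named pathway genes (at least 2-fold, interval excluding 1; Notch4 is named beyond that rule) were chosen with earlier results of these data known. A class cut from a score is a range: 552 control and 199 labelled KO barcodes lay from 10 to 20 on the stromal score, and 35 and 54 on the epithelial one. Cells are not replicates. Notch1, Notch3, Dll1 and Dll4 overlap genes on the opposite strand in GENCODE M21 (GRCm38), and the use of strand in counting is not stated in the sources used. Alternatives covered filters, cuts, scaling, means over barcodes, thinning and UMI minimums. Protein ends of the target genes, planned at first, were not analysed here.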

Additional observations from a re-analysis of the deposited data

Results flagged for a closer look

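Each of 3 members was past 2-fold in 1 class and on the other side of equality in another. With 1 library per genotype these contrasts between classes were not tested. Hes1 was 3.10-fold higher in stroma of the library labelled KO and had a ratio of 0.926 (0.853 to 1.01) in epithelium. Dll4 had a ratio of 2.01 in epithelium and 0.745 (0.419 to 1.27) in other barcodes. Notch3 had a ratio of 2.10 in other barcodes, 0.942 (0.535 to 1.69) in epithelium and 0.733 (0.325 to 1.45) in stroma. In each case the interval on the other side includes 1 over the whole class, and some other settings carried that side across 1. Hes1 in epithelium was 1.02 by median of ratios scaling, and Dll4 in other barcodes 1.31 with a class cut of 20. Notch3 was 1.04 in epithelium by median of ratios scaling and 1.03 in stroma with a class cut of 5. Some subsets of epithelium put Hes1 below 1 with intervals that exclude 1. It was 0.765 (0.659 to 0.889) at low immediate early score and 0.893 (0.820 to 0.973) in the deepest range of UMIs per barcode. In the middle and high score ranges it was 0.894 (0.787 to 1.02) and 1.08 (0.911 to 1.28). Notch3 in other barcodes was itself 0.247 after thinning, so no direction is drawn for it.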

How the results depend on the processing

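No paired analysis was possible because each genotype has 1 library, and no replicate could be left out. In stroma the count of 2 members past 2-fold held at 2 under all 12 alternatives, with Hes1 and Heyl in 11 of them. With barcodes of low immediate early score only, added after the data were seen, the 2 were Heyl, higher, and Notch3, lower at 0.278 (0.0330 to 1.04) on 68 and 2 UMIs, and Hes1 was at 1.62, so only 1 was higher. The Heyl ratio ran from 3.50 to 3.90 over its 10 alternatives and the Hes1 ratio from 1.62 to 3.23. In epithelium the count of 1 became 0 with all deposited barcodes, without doublet removal, with a class cut of 20, after thinning to 2000 UMIs, with a minimum of 100 UMIs and at low immediate early score, and 3 with members of at least 1 UMI. In other barcodes the count of 1 became 0 with all deposited barcodes, without doublet removal, after thinning and with members of at least 100 UMIs, 4 with a class cut of 20, 2 by means over barcodes and 3 with low immediate early score. Notch3 in other barcodes reversed to 0.247 after thinning. The number of members tested also changed, in epithelium from 7 to 5 after thinning or with at least 100 UMIs and to 10 with at least 1 UMI, and in other barcodes from 9 to 4 after thinning, to 3 with at least 100 UMIs and to 7 at low score. The cause of the other moves was not tested. Of 230 ratios of single members, 210 stayed within their intervals, 19 moved outside and 1 reversed. Leaving out gated barcodes and placing barcodes over both cuts changed only epithelium and stroma. The values of other barcodes under those settings were fixed in advance and are among the 210. A reversal was counted only where the main ratio was past 2-fold with an interval excluding 1. Ratios outside that rule also crossed 1. At low score Hes1 in other barcodes went from 1.23 to 0.560, and Jag1 in stroma from 1.14 to 0.706. Jag2, Dll1 and the pericyte values labelled KO rest on few UMIs.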
